A study of Homo sapiens with 33 samples.

Results

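The SLC25 family supplies most of the carriers that move small molecules across the inner membrane of mitochondria. The deposited results held 42 SLC25 genes, taken as every entry named SLC25A followed by a number, out of 15149 gene names in 3 tables. Of these, 40 were present in all 3 tables, and SLC25A18 and SLC25A34 were analysed in A-375 cells alone. Of 48 protein-coding genes of this naming in RefSeq, 6 (SLC25A2, SLC25A31, SLC25A41, SLC25A47, SLC25A48 and SLC25A52) were not analysed here.

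Each carrier is a small protein built of repeated pairs of membrane helices, and most swap one substrate in the matrix for another outside. Among the substrates are ADP and ATP, phosphate, citrate and malate, amino acids, carnitine esters, nucleotides, cofactors, iron and glutathione, so the family joins the respiratory chain and matrix enzymes to the rest of the cell. The carriers are encoded in the nucleus, and most are made in the cytosol and inserted into the inner membrane through the TIM22 translocase. GABP, an ETS-family transcription factor made of the DNA-binding subunit GABPA and a B subunit, is known for binding promoters of nuclear genes for mitochondrial proteins.

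RNA was sequenced from 33 libraries of established human cancer cell lines, 20 of the melanoma line A-375 and 13 of the bladder cancer line UM-UC-3. The B1TKO group (total knockout) joined B1KO clones, with GABPB1 exons 2 to 9 deleted, and B1X2KO clones, with exon 2 deleted. In A-375 it had 12 libraries from 9 clones (4 libraries of B1KO and 8 of B1X2KO), and in UM-UC-3 9 libraries from 8 clones (4 and 5). The B1LKO group (long-form knockout) had 2 libraries from 2 A-375 clones with exon 9 deleted. The controls were clones cut at the ROSA26 locus (4 libraries in A-375, 3 in UM-UC-3) and parental cells, which were not edited (2 libraries in A-375, 1 in UM-UC-3). All edited lines were single-cell clones sorted after transfection of Cas9 and guides.

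No value per library was used: each table gives 1 log2 fold change of knockout over control per gene, with a standard error (SE) and a Benjamini-Hochberg adjusted p from the authors' DESeq2 fit. The depth of each library is unknown, and the table names give parental cells as the control, which in UM-UC-3 were 1 library. Whether the ROSA26 clones were also among the controls is not stated, so levels are given for both cases. The entry GABPB1L had a log2 fold change of -10.60 in the A-375 total knockout, -12.60 in the UM-UC-3 total knockout and -12.79 in the A-375 long-form knockout in the authors' deposited tables. Other GABPB1 entries rose in the total knockouts: GABPB1L-DEX2 had 13.61 in A-375 and 11.82 in UM-UC-3, and GABPB1S-DEX2 had 10.15 in UM-UC-3. The short-form entries of the long-form table ran against those of the A-375 total knockout. In the authors' deposited tables GABPB1S had a log2 fold change of 13.95 in the long-form knockout and -9.81 in the total knockout, and GABPB1S-DEX2 had -12.00 and 12.36. The cause was not tested, and the long-form table is used under the name its authors gave it.

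SLC25 transcripts did not move in 1 direction after GABPB1 knockout. The median log2 fold change of the members was 0.08 in the A-375 total knockout, 0.00 in the UM-UC-3 total knockout and 0.00 in the A-375 long-form knockout, against -0.05, 0.03 and 0.02 over all genes tested in the same tables. In UM-UC-3, 16 of 40 members were under the threshold of 0.05 on adjusted p, with 10 members higher and 6 members lower, where 17.0% of all genes were higher and 14.2% lower. That is 40.0% of the members, where 31.1% of all 13310 genes passed. In the A-375 total knockout 3 of 42 members passed (7.14%, against 10.8% of 14330 genes), with 2 members higher (4.76%, against 5.07%) and 1 member lower (2.38%, against 5.74%). In the long-form knockout 0 of 42 passed, where 0.904% of 14156 genes did (0.240% higher and 0.664% lower). The shares of members were near those of all genes, and the changes lay in single carriers.

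**Figure D1:**
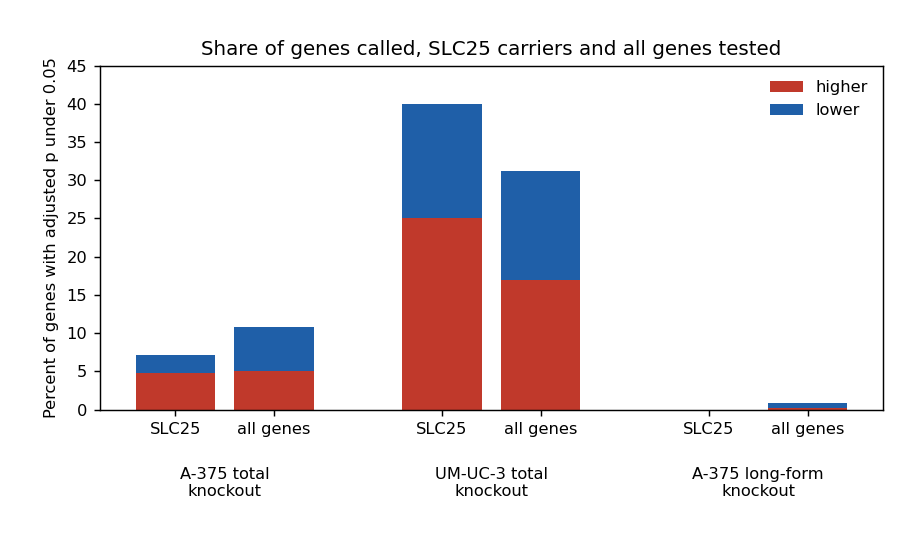
Percent of genes with an adjusted p under 0.05 (vertical axis) among SLC25 carriers (left bar of each pair) and among all genes tested (right bar), split into higher (red) and lower (blue) in knockout than in control. The UM-UC-3 pair stands at 40.0% and 31.1%, the A-375 total knockout pair at 7.14% and 10.8%, and no carrier was called in the long-form knockout.

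SLC25A14 is a relative of the uncoupling proteins that is abundant in brain. It was the 1 carrier of 40 called in both cell lines, where 483 of 12643 genes were. Its gene lies on chromosome X (130339888 to 130373361, plus strand, hg38). Its log2 fold change was -1.08 ± 0.32 (adjusted p of 0.0130, ± SE throughout) in the A-375 total knockout in the authors' deposited table. It fell by 1.79 ± 0.26 (adjusted p of 5.17e-10) in the UM-UC-3 total knockout, in the authors' deposited table, to 0.288 times the control level, with the smallest adjusted p of any member. The mean normalized counts of the authors' deposited tables (167 in A-375, 211 in UM-UC-3) and the fold changes imply 144 in A-375 knockouts and 305 in controls if the 2 parental libraries were the controls (122 and 258 with all 6). In UM-UC-3 they imply 169.6 in knockouts and 588 in the control if the 1 parental library was used, or 120.1 and 417 with all 4 controls. The fits were normalized separately, so these counts are not on 1 scale between the lines. In the long-form knockout SLC25A14 had -0.42 ± 0.17 (adjusted p of 0.286) in the authors' deposited table. The changes in the 2 total knockouts differed by -0.71 ± 0.41 (UM-UC-3 minus A-375; adjusted p of 0.267), with a 95% interval of -1.52 to 0.10.

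**Figure D2:**
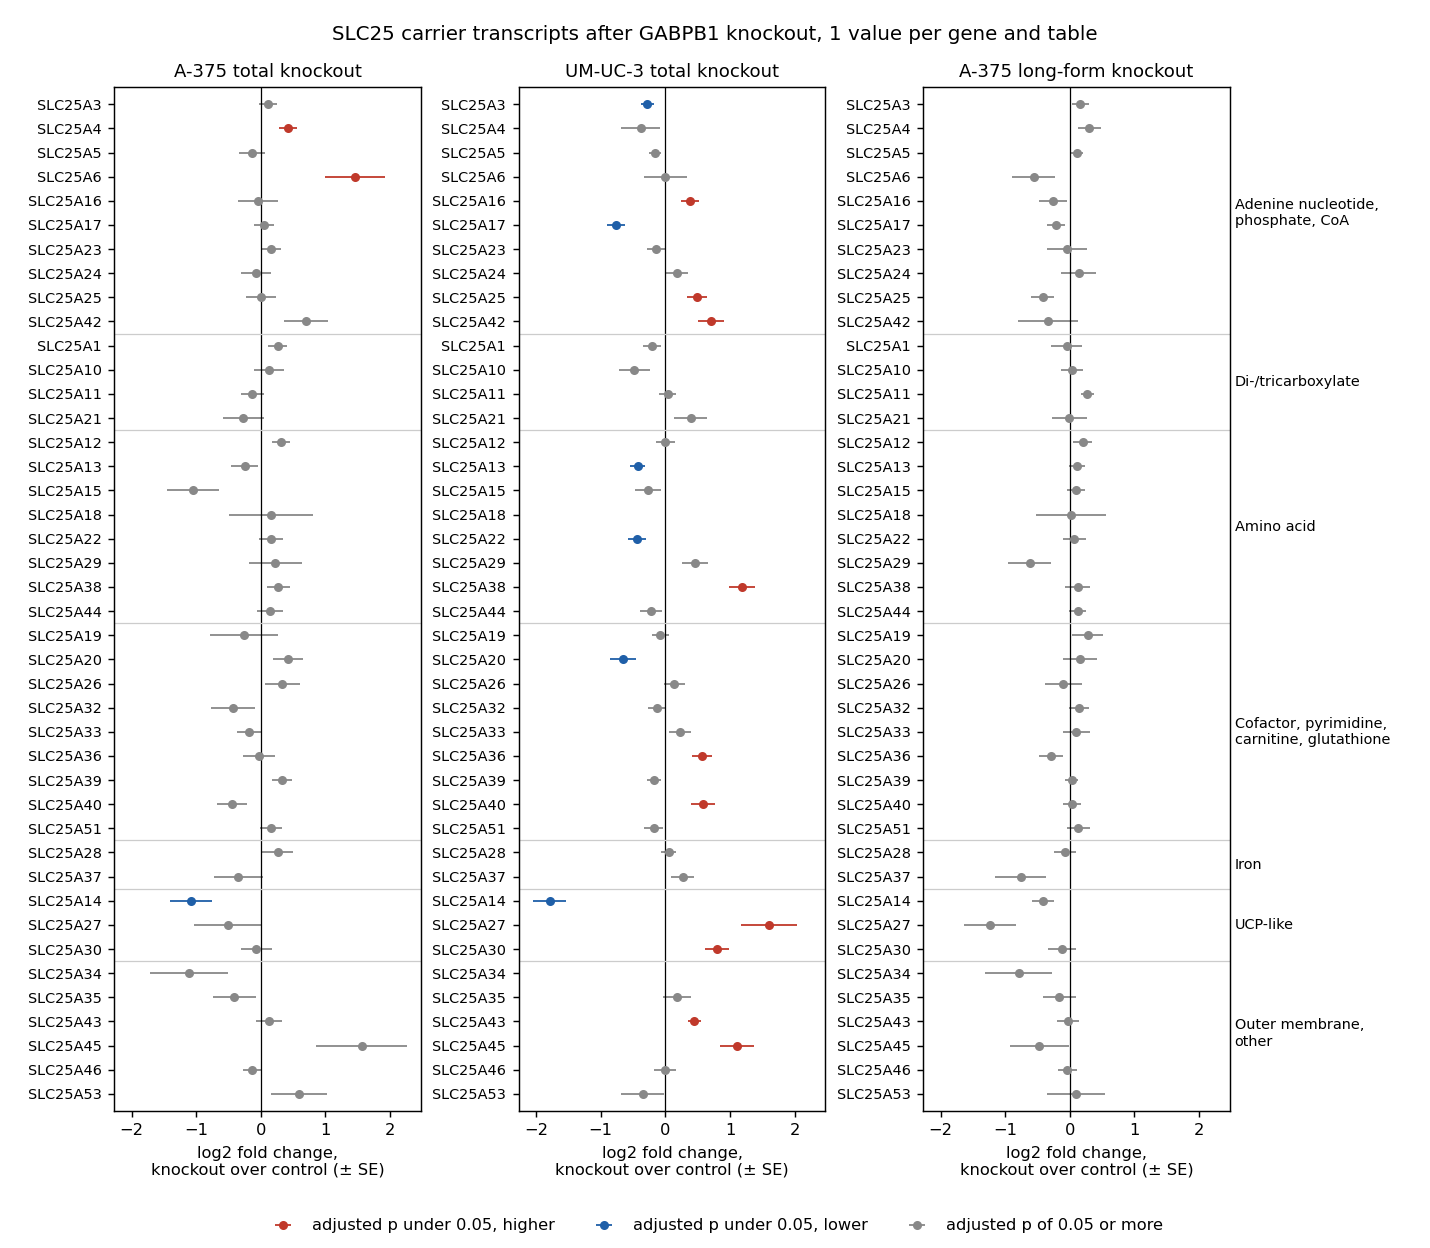
Log2 fold change of knockout over control for each SLC25 gene, 1 point per gene with its SE, in the A-375 total knockout, the UM-UC-3 total knockout and the A-375 long-form knockout; genes are grouped by substrate, red and blue points passed an adjusted p of 0.05. Calls are spread over most substrate groups and over both directions, and SLC25A14 is blue in the first and second panels.

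The other uncoupling-protein-like carriers measured, SLC25A27 and SLC25A30, moved the opposite way in UM-UC-3, so 2 of these 3 members rose and 1 fell there. SLC25A27 rose by 1.60 ± 0.43 (adjusted p of 0.00158) and SLC25A30 by 0.80 ± 0.18 (adjusted p of 9.90e-05) in the authors' deposited table. SLC25A27 is a transcript of low level, with an implied 128 normalized counts in UM-UC-3 knockouts and 42.3 in the control if 1 control was used, or 151 and 49.7 with 4. A-375 total knockouts had -0.51 ± 0.52 (adjusted p of 0.573) for SLC25A27 and -0.07 ± 0.24 (adjusted p of 0.880) for SLC25A30 in the authors' deposited table. The difference between the lines (UM-UC-3 minus A-375) was 2.11 ± 0.68 for SLC25A27 (adjusted p of 0.0257) and 0.88 ± 0.30 for SLC25A30 (adjusted p of 0.0371). The call for SLC25A30 was lost (0.79, adjusted p of 0.0628) when both tables were centred on their medians.

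Carriers of adenine nucleotides, phosphate and coenzyme A gave 3 members higher and 2 lower of 10 in UM-UC-3, beside 17.0% of all genes higher and 14.2% lower. SLC25A17, a carrier of the peroxisome membrane that takes coenzyme A and other nucleotide cofactors, fell by 0.76 ± 0.14 (adjusted p of 7.49e-07) in the authors' deposited table. Its implied level was 763 normalized counts in UM-UC-3 knockouts and 1297 in the control with 1 control, or 672 and 1142 with 4. In the A-375 total knockout it had 0.05 ± 0.15 (adjusted p of 0.878) in the authors' deposited table, and the difference between the lines, -0.81 ± 0.20, passed (adjusted p of 0.00257). SLC25A3, the phosphate carrier that feeds ATP synthase, fell by 0.28 ± 0.10 (adjusted p of 0.0162) in UM-UC-3 in the authors' deposited table. SLC25A42, which exchanges coenzyme A, rose by 0.71 ± 0.20 (adjusted p of 0.00240) in UM-UC-3 in the authors' deposited table and had 0.70 ± 0.34 (adjusted p of 0.172) in the A-375 total knockout. Those 2 estimates differed by 0.01 ± 0.39, with a 95% interval of -0.76 to 0.78. SLC25A25, an ATP-Mg/phosphate carrier regulated by calcium, rose by 0.49 ± 0.16 (adjusted p of 0.0112) and SLC25A16 by 0.38 ± 0.14 (adjusted p of 0.0306) in UM-UC-3 in the authors' deposited table. SLC25A16 lost its call when a trend on transcript length (adjusted p of 0.138) or GC content (adjusted p of 0.105) was removed.

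The ADP/ATP carriers measured here, which export ATP from the matrix, are encoded by SLC25A4, SLC25A5 and SLC25A6. In the A-375 total knockout SLC25A4 rose by 0.42 ± 0.14 (adjusted p of 0.0266) and SLC25A6 by 1.46 ± 0.46 (adjusted p of 0.0229) in the authors' deposited table. The most abundant of them by these counts, SLC25A5, had -0.13 ± 0.20 (adjusted p of 0.724) there. In UM-UC-3 the values were -0.38 ± 0.30 for SLC25A4 (adjusted p of 0.343), -0.16 ± 0.09 for SLC25A5 (adjusted p of 0.184) and 0.00 ± 0.33 for SLC25A6 (adjusted p of 0.998) in the authors' deposited table. SLC25A6 lies in the region shared by chromosomes X and Y (1386152 to 1392724 on both, minus strand, hg38), so the annotation holds 2 identical loci for it, and its counts are uncertain where reads could be split between them. In the long-form knockout it had -0.56 ± 0.33 (adjusted p of 0.536) in the authors' deposited table, and its difference from the A-375 total knockout, -2.02 ± 0.57, passed (long-form minus total; adjusted p of 0.0192). Both A-375 fits may have used the same controls, and the SE of this difference takes them as independent. The short-form GABPB1 entries ran opposite ways in these fits, for a cause not tested, which limits this comparison.

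Levels between genes can be set side by side only per length. Divided by the length of the longest annotated transcript, the mean normalized count of SLC25A5 was the highest of the family in each table and made up 34.0% of the family sum for the A-375 total knockout and 33.8% for UM-UC-3. SLC25A3 followed with 7.72% and 8.32%. Counts of SLC25A6, SLC25A10 and SLC25A32 are uncertain because reads could be shared between loci, and so are these shares and ranks. Division by the median transcript length instead gave 25.8% and 24.4% for SLC25A5, with SLC25A3 again next. Below them stood the citrate carrier SLC25A1, the glutathione carrier SLC25A39, the oxoglutarate carrier SLC25A11 and the ornithine carrier SLC25A15, all among the 8 highest in each of the 3 tables by the longest transcript. SLC25A4 held a different place in each line: it made up 0.0400% of the family sum for UM-UC-3 (rank 39 of 40) and 1.95% for the A-375 total knockout (rank 11 of 42); in UM-UC-3 its mean normalized count was 75.4. By median transcript length it made up 0.0207% for UM-UC-3 (rank 40) and 1.06% for the A-375 total knockout (rank 22).

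**Figure D3:**
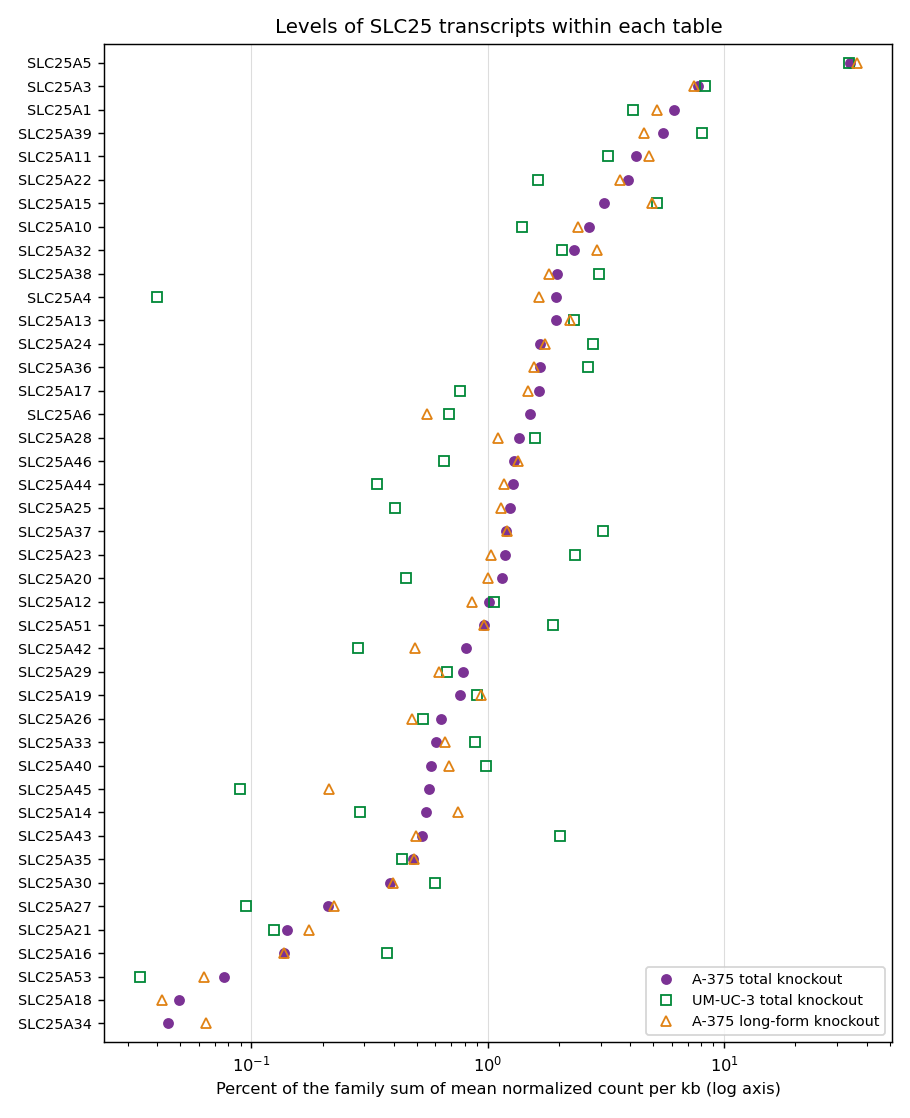
Level of each SLC25 transcript as a percent of the family sum of mean normalized count per kb of longest transcript (horizontal log axis), in the A-375 total-knockout (purple), UM-UC-3 total-knockout (green) and A-375 long-form (orange) tables, with knockout and control libraries averaged. SLC25A5 leads in all 3 at 33.8% to 36.3%, and SLC25A4 sits at 0.0400% in UM-UC-3 against 1.95% and 1.65% in the A-375 tables.

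Among amino acid carriers, SLC25A38 had the smallest adjusted p of any member that rose. It imports glycine, the starting material of haem synthesis, and its gene lies on chromosome 3 (39383324 to 39397351, plus strand, hg38). It rose by 1.19 ± 0.20 in UM-UC-3 (adjusted p of 1.87e-07) in the authors' deposited table, with an implied 2869 normalized counts in knockouts and 1254 in the control with 1 control, or 3275 and 1431 with 4. In A-375 total-knockout cells it had 0.27 ± 0.18 (adjusted p of 0.361) in the authors' deposited table, and the lines differed by 0.93 ± 0.27 (adjusted p of 0.0144). SLC25A13 (citrin), an aspartate/glutamate carrier of the malate-aspartate shuttle, fell by 0.43 ± 0.12 (adjusted p of 0.00355) in UM-UC-3 in the authors' deposited table. The glutamate carrier SLC25A22 fell by 0.44 ± 0.14 (adjusted p of 0.0106) in UM-UC-3 in the authors' deposited table. SLC25A12, the paralog of SLC25A13, had 0.00 ± 0.15 (adjusted p of 0.988) there. The ornithine carrier SLC25A15 had -1.05 ± 0.40 in the A-375 total knockout and did not pass (adjusted p of 0.0693) in the authors' deposited table, although its estimate was close in size to that of SLC25A14.

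Of 9 carriers of cofactors, pyrimidine nucleotides, carnitine and glutathione, 2 rose and 1 fell in UM-UC-3, a share near the 31.1% of all genes called there. SLC25A20, which brings acylcarnitines into the matrix for fatty acid oxidation, fell by 0.66 ± 0.20 (adjusted p of 0.00480) in the authors' deposited table. Its A-375 total-knockout value was 0.42 ± 0.23 (adjusted p of 0.225) in the authors' deposited table, and the difference between the lines was -1.08 ± 0.30 (adjusted p of 0.00809). SLC25A36, a pyrimidine nucleotide carrier, rose by 0.57 ± 0.15 (adjusted p of 0.00142), and the glutathione carrier SLC25A40 by 0.58 ± 0.19 (adjusted p of 0.0115) in UM-UC-3 in the authors' deposited table. The call for SLC25A40 was lost after removal of a trend on GC content (0.30, adjusted p of 0.230). SLC25A40 had -0.45 ± 0.23 (adjusted p of 0.196) in the A-375 total knockout in the authors' deposited table. Its difference between the lines, 1.02 ± 0.30, passed (adjusted p of 0.0121), with no trend on GC content removed. SLC25A39, the other glutathione carrier, had -0.18 ± 0.11 (adjusted p of 0.191) in UM-UC-3 in the authors' deposited table.

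Of the members with other or unsettled substrates, SLC25A43 rose by 0.45 ± 0.10 (adjusted p of 7.56e-05) and SLC25A45 by 1.11 ± 0.26 (adjusted p of 1.85e-04) in UM-UC-3 in the authors' deposited table. SLC25A45 had the highest estimate in the A-375 total knockout, 1.56 ± 0.70, and did not pass (adjusted p of 0.134) in the authors' deposited table. Reads of some members could be shared, and their counts are uncertain: of the 50-base words in the longest transcript, 87.9% of SLC25A32, 59.3% of SLC25A10 and 20.7% of SLC25A33 also occur in other genes. Of SLC25A38, 4.19% do, with its pseudogene SLC25A38P1 sharing most, and exons of SLC25A22 and SLC25A25 overlap those of PANO1 and SLC25A25-AS1 on the other strand. None of the 4 di- and tricarboxylate carriers and neither iron carrier (SLC25A28, SLC25A37) passed in any table. Of all genes, 31.1% passed in UM-UC-3, 10.8% in the A-375 total knockout and 0.904% in the long-form knockout. SLC25A46, an outer-membrane protein that acts in mitochondrial fission, had -0.01 ± 0.17 in UM-UC-3 (adjusted p of 0.976) in the authors' deposited table.

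In all, 6 of 40 members differed between the cell lines (15.0%, where 10.4% of 12639 genes did). The difference was above 0 for 4 of them (6.32% of all genes) and below 0 for 2 (4.12% of all genes). The members higher by this test were SLC25A27, SLC25A30, SLC25A38 and SLC25A40, and those lower were SLC25A17 and SLC25A20. Of the 10 carriers called higher in UM-UC-3, 5 had an estimate above 0 in the A-375 total knockout, and of the 6 called lower, 2 had one below 0. Over all members 17 of 40 (42.5%) had the same sign in both lines, where 56.7% of 12643 genes did. Between the long-form and total knockouts of A-375, 1 of 42 members differed, SLC25A6, where 4.45% of 13946 genes did (2.66% higher and 1.79% lower in the long-form knockout). At an unadjusted p under 0.05, 5 of the 42 members passed in the long-form knockout (11.9%, against 10.9% of all genes). The lowest of these adjusted p-values was 0.130, for SLC25A27 (-1.24 ± 0.40) in the authors' deposited table.

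**Figure D4:**
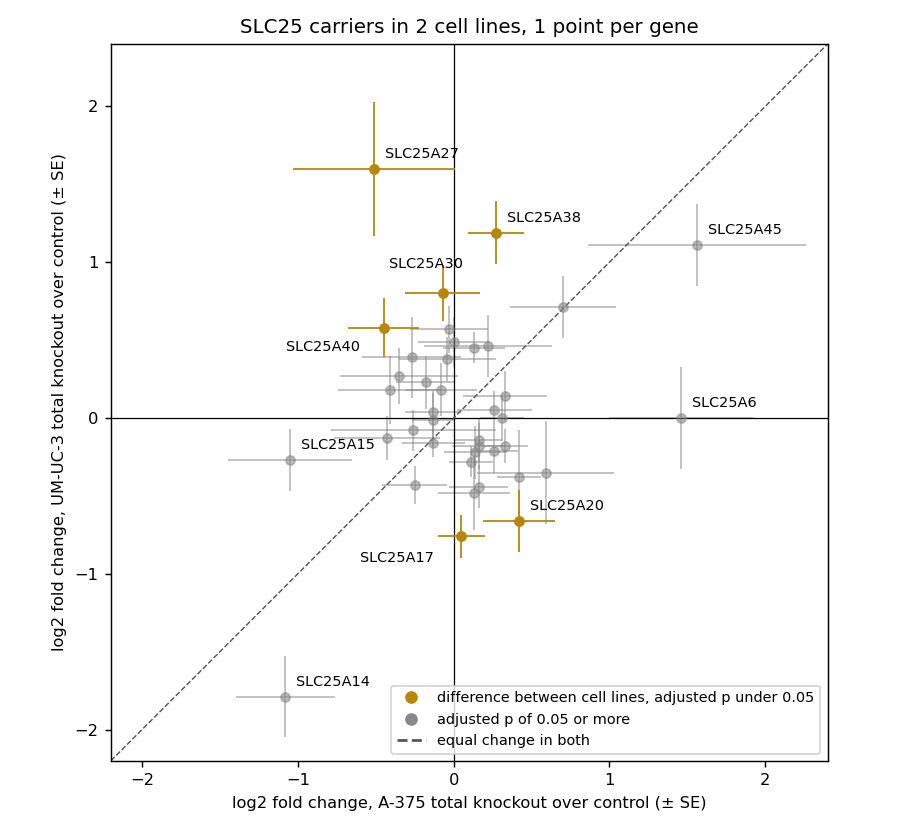
Log2 fold change in the UM-UC-3 total knockout (vertical axis) against that in the A-375 total knockout (horizontal axis) for 40 SLC25 genes, with SE bars and the line of equal change; gold points passed the test of the difference at an adjusted p of 0.05. SLC25A14 lies low on both axes (-1.79 and -1.08), while SLC25A27, SLC25A30, SLC25A38 and SLC25A40 lie above the line and SLC25A17 and SLC25A20 below it.

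Promoter sequence was set beside these changes because GABP binds ETS sites. The motif CCGGAA was searched on both strands (TTCCGG on the other) in RefSeq windows from 250 bases before to 50 bases after each start on GRCh38.p14, which 36 members had. It was found in 14 of the 36 (38.9%), and in 32.8% of the 11016 tested genes with a window. Of the members lower in UM-UC-3, 5 of 6 held it, of those higher 4 of 8, and of those not called 5 of 20. With the longer core CCGGAAG, which lies within the same matches, the counts were 4 of 6, 2 of 8 and 4 of 20; it was found in 10 of the 36 members (27.8%) and in 20.8% of the tested genes with a window. These counts are a description, genes with several starts have several windows, and a match is not a binding site. The motif was not counted over all genes by call, so the split of members by call has no background. Windows of carriers picked as examples are printed 5′ to 3′ on the strand of the gene, with motif matches in capitals. SLC25A14 fell in both lines and SLC25A17 in UM-UC-3, both with the motif. SLC25A38 (with the motif) and SLC25A43 (without it) rose in UM-UC-3. SLC25A13, which fell in UM-UC-3 and lacks the motif, is not shown.
SLC25A14, which fell in both lines (chrX:130339669-130339968, plus strand; 1 match, 17 bases before the start):
SLC25A14: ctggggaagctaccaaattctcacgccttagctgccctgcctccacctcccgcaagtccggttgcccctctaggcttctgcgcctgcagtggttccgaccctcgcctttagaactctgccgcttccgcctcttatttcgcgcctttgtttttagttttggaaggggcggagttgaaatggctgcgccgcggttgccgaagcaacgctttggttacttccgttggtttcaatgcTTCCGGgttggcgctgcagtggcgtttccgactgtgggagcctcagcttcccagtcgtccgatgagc
SLC25A17, which fell in UM-UC-3 (chr22:40819297-40819596, minus strand; 1 match, 48 bases before the start):
SLC25A17: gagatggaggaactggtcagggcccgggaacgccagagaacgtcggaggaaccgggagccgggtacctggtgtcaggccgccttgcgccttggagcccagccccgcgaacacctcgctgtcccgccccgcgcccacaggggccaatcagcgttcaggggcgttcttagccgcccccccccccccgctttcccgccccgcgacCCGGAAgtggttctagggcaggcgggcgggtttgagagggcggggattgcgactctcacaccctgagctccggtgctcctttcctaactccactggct
SLC25A38, which rose in UM-UC-3 (chr3:39383120-39383419, plus strand; 1 match, 25 bases before the start):
SLC25A38: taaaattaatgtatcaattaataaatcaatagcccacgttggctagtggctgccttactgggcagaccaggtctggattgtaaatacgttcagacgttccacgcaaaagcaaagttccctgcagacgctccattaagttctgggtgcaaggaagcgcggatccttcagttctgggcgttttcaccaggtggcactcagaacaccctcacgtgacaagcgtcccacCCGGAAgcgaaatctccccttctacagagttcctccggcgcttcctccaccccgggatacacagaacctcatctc
SLC25A43, which rose in UM-UC-3 (chrX:119399086-119399385, plus strand; 0 matches):
SLC25A43: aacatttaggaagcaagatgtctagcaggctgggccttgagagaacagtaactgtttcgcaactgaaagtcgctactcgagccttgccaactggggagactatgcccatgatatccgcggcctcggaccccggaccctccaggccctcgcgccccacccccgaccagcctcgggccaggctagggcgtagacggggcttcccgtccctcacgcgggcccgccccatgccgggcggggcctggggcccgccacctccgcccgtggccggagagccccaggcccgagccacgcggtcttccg
The motif stood close upstream of the RefSeq start in SLC25A14 and SLC25A17, which fell, and also in SLC25A38, which rose. By GENCODE these genes begin ahead of the motif, at 130339888 (SLC25A14), 40819399 (SLC25A17, minus strand) and 39383324 (SLC25A38), so there the motif lies within the gene.

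Genes that act with the carriers were counted by list. Of 9 measured genes for carrier import through the TIM22 route, 1 rose and 3 fell in UM-UC-3, where 17.0% of all genes were higher and 14.2% lower. None of the 9 passed in either A-375 table, where 10.8% (total knockout) and 0.904% (long-form knockout) of all genes did. The small import chaperones TIMM8A (-0.67 ± 0.13, adjusted p of 5.04e-06), TIMM8B (-0.82 ± 0.21, adjusted p of 7.99e-04) and TIMM13 (-0.45 ± 0.15, adjusted p of 0.0126) fell, while TIMM9, part of the complex that escorts carriers, rose by 0.53 ± 0.14 (adjusted p of 0.00149) in the authors' deposited table. Of 23 enzymes that share substrates with the carriers, 3 rose and 5 fell in UM-UC-3, where 31.1% of all genes were called, and 1 rose and 3 fell in the A-375 total knockout, where 10.8% were. CPT2, which turns the acylcarnitines delivered by SLC25A20 back into acyl-CoA, fell by 0.83 ± 0.23 in UM-UC-3 (adjusted p of 0.00253) and by 0.83 ± 0.26 in the A-375 total knockout (adjusted p of 0.0222) in the authors' deposited tables. MDH1, the cytosolic enzyme of the malate-aspartate shuttle, fell by 0.46 ± 0.13 (adjusted p of 0.00369) in UM-UC-3 and by 0.33 ± 0.06 (adjusted p of 3.90e-06) in the A-375 total knockout in the authors' deposited tables. In UM-UC-3, MAT2A, which makes S-adenosylmethionine, fell by 0.72 ± 0.18 (adjusted p of 3.99e-04), and NADK2, the mitochondrial NAD kinase, rose by 0.54 ± 0.14 (adjusted p of 0.00106) in the authors' deposited table. NNT, which makes matrix NADPH from NADH, fell by 0.73 ± 0.14 in the A-375 total knockout (adjusted p of 1.79e-05) in the authors' deposited table.

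Inner-membrane transporters of other families gave 2 of 19 higher and 3 lower in UM-UC-3 (31.1% of all genes called), and 1 higher and 1 lower in the A-375 total knockout (10.8% called). The mitochondrial pyruvate carrier subunit MPC1 rose by 0.53 ± 0.17 (adjusted p of 0.0108) in UM-UC-3 in the authors' deposited table. The sideroflexin SFXN5 fell by 0.63 ± 0.22 (adjusted p of 0.0169) in UM-UC-3 and rose by 0.66 ± 0.22 (adjusted p of 0.0340) in the A-375 total knockout in the authors' deposited tables. The calcium uniporter regulator MICU2 fell by 0.58 ± 0.17 (adjusted p of 0.0134) in the A-375 total knockout in the authors' deposited table. Among 6 outer-membrane channels and carrier-fold proteins, TSPO (-0.70 ± 0.15, adjusted p of 3.38e-05) and the channel VDAC1 (-0.29 ± 0.12, adjusted p of 0.0429) fell in UM-UC-3 in the authors' deposited table. None of the 6 rose there, where 17.0% of all genes were higher and 14.2% lower. In the A-375 total knockout 0 of the 6 passed, where 10.8% of all genes did. In the long-form knockout 0 genes of these lists passed, where 0.904% of all genes did.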

How the data were processed

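Counting and testing were done by the authors. The submitters' processing notes name the tools HISAT2, SAMtools, StringTie and DESeq2, with no version, and the build hg38. Not given in the sources used here were the annotation, gene filter, design formula and use of strand. The deposited signal column is the mean over a fit's libraries of counts divided by size factors, per the file headers. The deposited log2 columns are the knockout-over-control fold change and its SE, and the score column its Wald statistic. The deposited p-value columns hold p, Benjamini-Hochberg adjusted p and q-value. Recomputed adjusted p-values differed from the deposited ones by at most 6.98e-05.

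Here a gene was called at the authors' adjusted p under 0.05. Differences between tables were the difference of log2 fold changes over the root of summed squared SEs, with a normal p. They were adjusted (Benjamini-Hochberg) over genes whose mean normalized count was at least 10 in both (scipy 1.17.1). This was tested on simulated data with independent errors of the deposited size, so shared controls and repeat libraries of a clone were not covered. Implied group levels were solved from mean, fold change and library numbers. Lengths, GC content and places came from GENCODE release 29 (94.2% of tested genes matched). Members and lists were chosen with earlier results of these data known. Named genes were called members (up to 10 each way per table), differing members, the 8 highest by level and up to 4 called genes per list; other members given are named as contrasts. Protein sequences were not used here. Several libraries came from 1 clone, and p-values measure only the spread the authors' fit used.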

Additional observations from a re-analysis of the deposited data

Results flagged for a closer look

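The changes of 6 carriers differed between the cell lines, by the test of the difference (UM-UC-3 total knockout minus A-375 total knockout, log2 scale). SLC25A27 differed by 2.11 ± 0.68 (SE, adjusted p 0.0257), SLC25A40 by 1.02 ± 0.30 (adjusted p 0.0121), SLC25A38 by 0.93 ± 0.27 (adjusted p 0.0144) and SLC25A30 by 0.88 ± 0.30 (adjusted p 0.0371). SLC25A20 differed by -1.08 ± 0.30 (adjusted p 0.00809) and SLC25A17 by -0.81 ± 0.20 (adjusted p 0.00257). Trends on transcript length or GC content were not removed for these differences. With the GC trend removed within each line, SLC25A40 had 0.30 (adjusted p 0.230) in UM-UC-3 and -0.31 (adjusted p 0.410) in the A-375 total knockout. Within A-375, SLC25A6 differed between the long-form and the total knockout by -2.02 ± 0.57 (long-form minus total, adjusted p 0.0192). The short-form GABPB1 entries ran opposite ways in those fits, and the cause was not tested. In UM-UC-3 the parental control named by the table is 1 library, and SLC25A6 has identical annotated copies on chromosomes X and Y; the part of either in these differences was not tested.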

How the results depend on the processing

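The count of called members in each table was recomputed with the q-value, with an adjusted p under 0.01, and after centring on the median of all genes. It was also recomputed for members whose mean normalized count was at least 100, and with trends on transcript length or GC content removed. In UM-UC-3 the count was 11 to 18, against 16 as deposited. As deposited 31.1% of all genes passed, and the shares of all genes at the other settings are not given here. In the A-375 total knockout it was 3 or 4, except that at an adjusted p under 0.01 it was 0 (0 higher and 0 lower); with the q-value 2 members were lower, SLC25A15 joining SLC25A14. In the long-form knockout it was 0 under each. Of the differences between cell lines, 2 remained at an adjusted p under 0.01, and 5 of the 6 with 3 others after centring. At the main setting 10.4% of all genes differed, and the shares of all genes at these settings are not given here. Trends on transcript length or GC content were not removed for the differences. The difference of SLC25A6 between A-375 knockouts was lost at 0.01 (0 members). No called member changed sign. By median transcript length, 5 of the 8 highest members by level stayed so in both total-knockout tables. Depth per library is unknown. No library could be left out, and no paired analysis was possible because the tables hold no values per library.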
